A study of Mus musculus with 4 samples.

Results

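The genes of the alveolar macrophage and of its growth factor GM-CSF were followed in the newborn lung of mice with a mutant receptor gene Ryk. There are 10 of them among the 48709 genes of the deposited table, found by their symbols: the ligand gene Csf2, the receptor chain genes Csf2ra and Csf2rb, the transcription factor gene Pparg, and the macrophage genes Siglecf, Itgax, Marco, Ear1, Ear2 and Chil3. Siglecf and Itgax were selected on their low values in the mutant lungs against the wild-type lungs, so their difference is described here without a test. The other 8 were added as members of the same axis and carry a test, though they too were chosen with earlier results of these data known. The tissue was the left lung lobe at postnatal day 1 of untreated C57BL/6 mice, 2 of them RykSL/SL (called mutant) and 2 wild type, from which total RNA was taken. Ryk encodes a receptor for WNT ligands, and the labels do not describe the SL allele. The labels give neither sex nor litter, and each library is 1 mouse.

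Alveolar macrophages live on the air side of the alveolus, where they take up surfactant, microbes and debris. They descend from fetal monocytes that enter the lung before birth and mature in the days after it. GM-CSF, the product of Csf2, is made mainly by the alveolar epithelium around birth. It binds a receptor with a specific alpha chain and a beta chain that the receptors for interleukins 3 and 5 also use, and signals through JAK2 and STAT5. In fetal monocytes this signal induces PPAR-gamma, which drives the mature programme of lipid handling and surface markers, among them the lectin Siglec-F and the integrin CD11c, the product of Itgax.

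The values are normalized read counts, which summed to between 18658239 and 19987634 per library. The way in which low values skip or repeat whole numbers gave an estimated 17050000 to 22830000 reads per library, with 1 read worth 0.855 and 1.1725 in mutant lungs 1 and 2 and 0.9865 and 0.994 in wild-type lungs 1 and 2. The wild-type lungs lay closer together (log2 differences over genes with an SD of 0.314) than the mutant lungs (SD of 0.6). Mutant lung 1 had 24836 normalized counts of Xist, the RNA of the inactive X chromosome, against 7 to 23 in the other lungs. It also had low values of Y-linked genes such as Ddx3y (56 against 2197 to 3769). This is the pattern of a female, and the other lungs had that of males, so the mutant lungs differ from each other in sex-linked genes as well. Where mutant lung 1 stands apart from the other lungs, as for Csf2, sex and other differences between mice cannot be told apart. Ryk itself stood at 2757 and 2203 in the mutant lungs, against 2528 and 2525 in the wild type. Lung genes marked the tissue as labelled, with 135559 to 220945 normalized counts of the surfactant protein gene Sftpc. In whole lung tissue, fewer cells of a type and less RNA per cell cannot be told apart.

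In the wild-type lungs the 10 genes spanned a wide range of levels per kilobase of transcript. Ear2 and Ear1 were highest, at means of 1421 and 399 normalized counts per kilobase, followed by Chil3 (166), Csf2ra (151), Marco (104), Csf2rb (64.1), Csf2 (63.8), Pparg (47.5), Itgax (28.9) and Siglecf (12.7). Chil3 and Csf2ra were not separated by the spread of the wild-type lungs, nor were Csf2rb and Csf2. With the length of all annotated exons in place of the longest coding transcript, Marco (104) came before Csf2ra (97.2) and Csf2 (63.8) before Csf2rb (43.2).

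**Figure D1:**
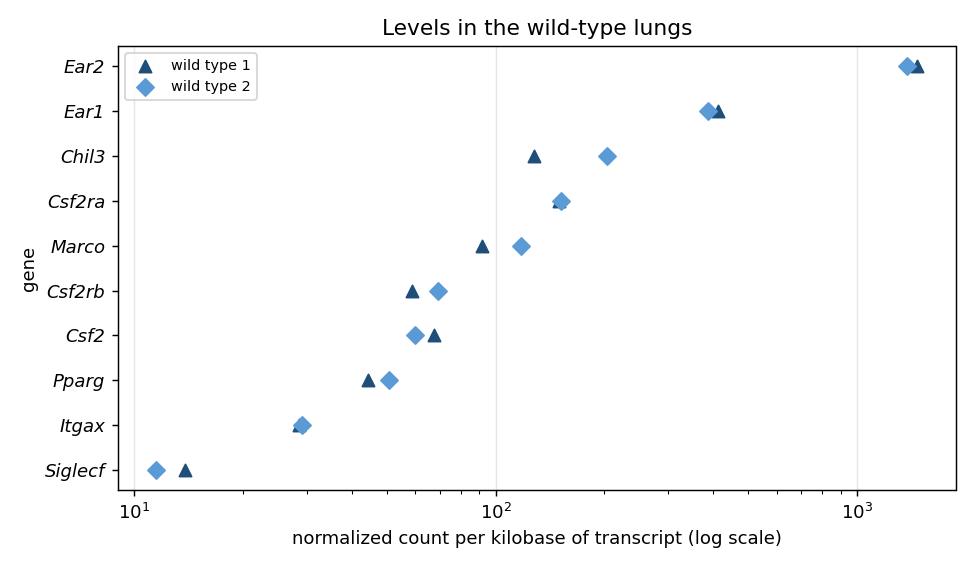
Levels of the 10 genes in the 2 wild-type lungs, as normalized counts per kilobase of the longest protein-coding transcript on a log axis, 1 point per lung. Ear2 is highest and Siglecf lowest, and Chil3 has the widest gap between the lungs.

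Taken over all 10 genes, both mutant lungs lay below both wild-type lungs for 6 (Siglecf, Itgax, Marco, Ear1, Ear2 and Csf2), above them for 2 (Chil3 and Csf2rb), and overlapped with them for Pparg and Csf2ra. Among the 18436 genes whose mean reached 10, which include all 10, 26.9% had both mutant lungs below and 25.7% had both above, so a separation of the groups is common in these libraries. Without the selected genes Siglecf and Itgax, 4 of 8 lay below and 2 of 8 above. The test was limma on log2(value + 1) over the 18436 genes with Benjamini-Hochberg adjustment. By limma 2 of the 8 genes were called lower, Ear1 and Ear2, and 0 higher, where Chil3 was the 1 gene higher at an unadjusted p under 0.05. Over all genes tested 0.917% were called lower, 1.47% higher and 2.39% in either direction. An unadjusted p under 0.05 was found for 3703 of the 18436 genes, in either direction. The counts at an unadjusted p given for the lists below stand beside that number.

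**Figure D2:**
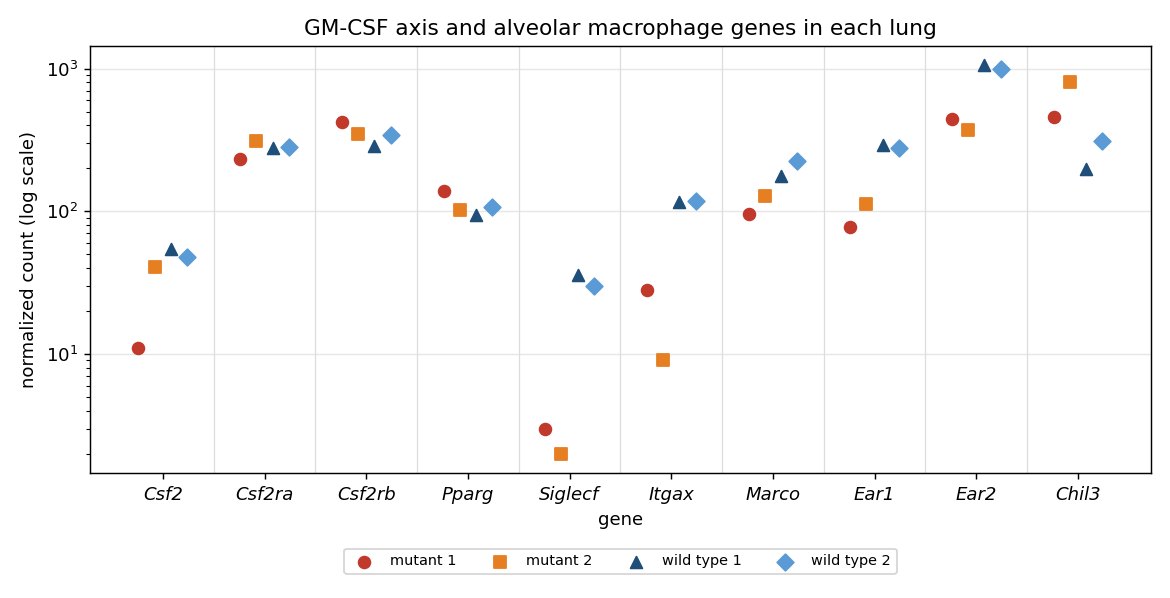
Normalized counts of the 10 genes on a log axis, 1 point per lung, with mutant lungs as a circle and a square and wild-type lungs as a triangle and a diamond. Siglecf and Itgax sit far below the wild type in both mutant lungs, and Csf2 in mutant lung 1. Of the receptor genes, Csf2ra overlaps with the wild type and Csf2rb is slightly above it in both mutant lungs.

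Csf2 (ENSMUSG00000018916, chromosome 11, positions 54247271 to 54249667, GRCm38), the GM-CSF gene, had 11 and 41 normalized counts in mutant lungs 1 and 2 and 54 and 48 in wild-type lungs 1 and 2. Mutant lung 1 stood apart from the other 3 lungs, at 21.6% of the wild-type mean, while mutant lung 2 stood at 80.4%. The value of 11 corresponds to about 13 reads. The change on the log2 scale was -1.21 (standard error 0.59, 95% interval -2.65 to 0.23), and limma did not call it (adjusted p = 0.315). Without mutant lung 1 it was -0.31, and without mutant lung 2 it was -2.11. Exons of Csf2 share 96 bases with the antisense gene Gm12223, which had at most 1 normalized count in any lung.

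The receptor genes were close to the wild type. Csf2ra (ENSMUSG00000059326, chromosome 19, positions 61224402 to 61228418) encodes the alpha chain that binds GM-CSF and had 231 and 309 normalized counts in the mutant against 277 and 281. Its log2 fold change was -0.06 with a 95% interval of -0.54 to 0.42 (limma, adjusted p = 0.894), and the mutant lungs lay on either side of the wild type. Csf2rb (ENSMUSG00000071713, chromosome 15, positions 78325990 to 78351000), the signalling beta chain, had 421 and 349 against 288 and 340. Both mutant values were the higher ones, with mutant lung 2 close to wild-type lung 2, and the log2 fold change of 0.29 (95% interval -0.15 to 0.74) was not called (limma, adjusted p = 0.419). The neighbouring copy Csf2rb2, a beta chain for interleukin 3, had 104 and 82 against 67 and 97, with a log2 fold change of 0.19 (limma, adjusted p = 0.739). Of the 50-base sequences of Csf2rb transcripts, 12.3% also occur in Csf2rb2, so some reads cannot be assigned between them.

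Other ligands and chains that meet at the beta chain were scarce or level. The interleukin 3 gene Il3 is listed at 0 in all 4 lungs. The interleukin 5 gene Il5 was at 0 and 2 in the mutant lungs, against 0 and 6 in the wild type, and its receptor gene Il5ra at 1 and 0 against 2 and 1. Il3ra, the alpha chain of the interleukin 3 receptor, had 254 and 141 against 156 and 208, and the groups overlapped. Of the 19 tested genes of the receptor's relatives and its signalling path, limma called none in either direction. At an unadjusted p under 0.05, 4 were higher and 1 lower, where 3703 of all 18436 genes tested had such a p. The list median was 0.19 against -0.02 over all genes tested. Stat3, a transcription factor of cytokine receptors, had 2409 and 3153 normalized counts against 1799 and 1848 (log2 fold change 0.60, adjusted p = 0.144), and the kinase gene Pim1 had 622 and 807 against 487 and 433 (0.63, adjusted p = 0.147).

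Pparg (ENSMUSG00000000440, chromosome 6, positions 115360951 to 115490399) encodes PPAR-gamma, a lipid-activated nuclear receptor. Its normalized counts were 139 and 102 in mutant lungs 1 and 2, against 94 and 108 in the wild type. The groups overlapped, and the log2 fold change was 0.24 with a 95% interval of -0.35 to 0.83 (limma, adjusted p = 0.625). Fibroblasts, epithelium and fat cells also express Pparg, and the adipocyte marker Adipoq was at 0 or 1 in every lung.

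Genes of lipid uptake and export that work with PPAR-gamma were called in both directions, 3 of 17 upward and 1 downward. Over all genes tested 1.47% were called upward and 0.917% downward. Abca1, which exports cholesterol, had 4980 and 4999 normalized counts against 987 and 1324 in the wild type and rose by 2.12 on the log2 scale (standard error 0.18, limma, adjusted p = 0.0107). Pnpla2, the lipase that starts triglyceride breakdown, rose from 604 and 717 to 1596 and 1600 (1.28), and the lipoprotein lipase gene Lpl rose by 0.99. Plin2, a coat protein of lipid droplets, fell by 0.98, from 2492 and 2421 to 1163 and 1324. The list median was 0.05. These genes are active in many lung cell types, and which cells gave the change was not tested. Lpl was not called with libraries scaled to equal totals (limma, adjusted p = 0.0578), without the mean-variance trend (0.11) or when low genes were kept (0.24).

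Siglecf (ENSMUSG00000039013, chromosome 7, positions 43351341 to 43359531) encodes Siglec-F, a lectin that binds sialic acid and marks alveolar macrophages and eosinophils. It stood at 3 and 2 normalized counts in mutant lungs 1 and 2, against 36 and 30 in the wild type. Both mutant lungs were nearly without the transcript, at 9.09% and 6.06% of the wild-type mean, and these values rest on 3 or 4 reads and on 2 reads. The difference on the log2(value + 1) scale was -3.29, with -3.08 in mutant lung 1 and -3.50 in mutant lung 2, and it was -2.34 with a pseudocount of 5. Only 0.21% of its 50-base sequences occur in another gene's transcripts.

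Itgax (ENSMUSG00000030789, chromosome 7, positions 128129547 to 128150657) encodes the integrin alpha chain CD11c of alveolar macrophages and dendritic cells. It stood at 28 and 9 normalized counts in mutant lungs 1 and 2, against 116 and 118 in the wild type. The wild-type lungs were alike, and the mutant lungs stood at 23.9% and 7.69% of their mean, with mutant lung 2 the lower one. The difference on the log2(value + 1) scale was -2.79, from -2.03 in mutant lung 1 and -3.56 in mutant lung 2. Of the 18436 genes, 12 had a log2 difference as low as that of Siglecf or lower. For Itgax the count was 15, each count including the gene itself. Both genes were selected on their low mutant values, so low ranks follow from the selection and are not evidence of a difference. Siglecf passed the filter on the mean only through its wild-type values. Of the 50-base sequences of Itgax, 8.02% occur in the neighbouring integrin gene Itgad, which had at most 12 normalized counts in any lung.

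The sequence before the start of these genes is shown because Siglecf and Itgax are, of the 10, the 2 with the lowest mutant values relative to the wild type and Ear1 and Ear2 are the 2 that limma called. Each line gives bases 250 to 11 before the RefSeq start (GRCm38.p6), 5′ to 3′ on the gene's strand, with motif matches in capitals. They are chr7:43351091-43351330 (plus strand) for Siglecf, chr7:128129300-128129539 (plus) for Itgax, chr14:43819650-43819889 (minus) for Ear1 and chr14:44102404-44102643 (plus) for Ear2. The RefSeq start of Ear1 belongs to its short transcript. The span of Ear1 in the deposited table also takes in a GENCODE transcript that begins far upstream, so this window lies inside the gene as counted.
Siglecf: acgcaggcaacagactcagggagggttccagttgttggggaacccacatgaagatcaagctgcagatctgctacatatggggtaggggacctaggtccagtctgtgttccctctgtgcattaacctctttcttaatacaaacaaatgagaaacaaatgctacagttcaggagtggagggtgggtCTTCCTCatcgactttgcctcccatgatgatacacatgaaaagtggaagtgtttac
Itgax: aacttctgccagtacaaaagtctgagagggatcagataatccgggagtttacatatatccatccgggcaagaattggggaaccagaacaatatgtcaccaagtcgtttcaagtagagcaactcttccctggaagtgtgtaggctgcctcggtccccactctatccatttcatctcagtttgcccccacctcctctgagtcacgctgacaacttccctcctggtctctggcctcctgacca
Ear1: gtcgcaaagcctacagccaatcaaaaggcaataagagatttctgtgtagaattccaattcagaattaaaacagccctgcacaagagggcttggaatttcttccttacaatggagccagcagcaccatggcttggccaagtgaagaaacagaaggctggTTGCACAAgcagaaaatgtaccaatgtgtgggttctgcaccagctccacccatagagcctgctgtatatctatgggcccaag
Ear2: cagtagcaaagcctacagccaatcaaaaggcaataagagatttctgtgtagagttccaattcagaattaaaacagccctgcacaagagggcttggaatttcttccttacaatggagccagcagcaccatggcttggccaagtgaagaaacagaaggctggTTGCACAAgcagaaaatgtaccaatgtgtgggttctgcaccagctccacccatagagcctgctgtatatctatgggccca

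In these windows 4 motifs were searched on both strands: GAGGAAG, a core of sites for the macrophage factor PU.1; TTGCNNAA for C/EBP factors; TTCNNNGAA for STAT factors; and the nuclear receptor motif AGGTCA. They occur in 10.01%, 9.29%, 6.77% and 13.5% of 32851 mouse promoter windows of the same length. Siglecf has 1 match to the PU.1 core on the opposite strand, with its first printed base 66 bases before the start, and Itgax has no match to any of the 4. A match is a description of the letters and not a binding site. Ear1 and Ear2 each have 1 C/EBP match, 92 and 90 bases before the start. RefSeq promoters were found for 9 of the 10 genes, all but Csf2rb. The windows of Ear1 and Ear2 are near copies of each other, with 236 of 238 aligned bases identical.

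Ear1 and Ear2 encode small ribonucleases that were named after eosinophils and that alveolar macrophages also make. Ear2 (ENSMUSG00000072596, chromosome 14, positions 44102654 to 44103534) fell from 1055 and 989 normalized counts in the wild type to 441 and 369 in the mutant. Both mutant lungs were well below both wild-type lungs, which lay close together. The change on the log2 scale was -1.34 (standard error 0.16, 95% interval -1.72 to -0.96, limma, adjusted p = 0.0193). Ear1 (ENSMUSG00000072601, chromosome 14, positions 43818765 to 43875517) fell from 293 and 276 to 78 and 113. Here mutant lung 1 was the lower one, and the change on the log2 scale was -1.59 (standard error 0.23, 95% interval -2.16 to -1.02, limma, adjusted p = 0.0333). Without mutant lung 1 the log2 fold change was -1.32 for Ear1 and -1.47 for Ear2. Neither gene was called without mutant lung 2 (adjusted p = 0.0966 for both), without wild-type lung 1 (0.885 for Ear1 and 0.86 for Ear2), without wild-type lung 2 (0.768 for both) or without the mean-variance trend (0.0742 and 0.065), and in those 3 fits with a lung left out limma called 0 genes in all (5249, 917 and 1133 at an unadjusted p under 0.05).

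The values of the Ear genes are not independent of each other. The longest transcripts of Ear1 and Ear2 are 96.8% identical over 710 aligned bases, and 57.4% of the 50-base sequences of Ear1 and 41.5% of those of Ear2 occur in other genes. The pseudogene Ear-ps9, whose exons overlap those of Ear1 by 17 bases on the same strand, had 25 and 34 normalized counts in the mutant against 117 and 99. Ear10, another near copy, had 117 and 81 against 276 and 222, with a log2 fold change of -1.34 that was not called (limma, adjusted p = 0.0594). Ear6, another gene of the family, had 3 and 14 against 7 and 8, too low to be tested, and its groups overlapped. The division of reads among the near copies was not given in the sources used here.

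Marco (ENSMUSG00000026390, chromosome 1, positions 120474538 to 120505024), a scavenger receptor for bacteria and particles, had 95 and 127 normalized counts in the mutant lungs, against 176 and 226 in the wild type. The groups did not overlap, at 47.3% and 63.2% of the wild-type mean, but the wild-type lungs also differed from each other. Its log2 fold change was -0.85 with a 95% interval of -1.44 to -0.27 and was not called after adjustment (limma, adjusted p = 0.138).

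Chil3 (ENSMUSG00000040809, chromosome 3, positions 106147554 to 106167564), which encodes the secreted chitinase-like protein Ym1, was the member with the highest mutant values relative to the wild type. Mutant lungs 1 and 2 held 460 and 801 normalized counts, against 197 and 313 in the wild type. Both mutant lungs were above both wild-type lungs, with mutant lung 2 the higher one, and the difference on the log2 scale was 1.29 (standard error 0.33, 95% interval 0.48 to 2.10). It was not called (limma, adjusted p = 0.119). Its near copy Chil4, 94.4% identical in the transcript, had 44 and 68 against 15 and 25 (log2 fold change 1.45, adjusted p = 0.126), and 26.9% of the 50-base sequences of Chil3 occur in other genes. Neutrophils and their precursors also make Chil3. The summed normalized counts of 14 neutrophil genes were 7632 and 10712 in the mutant lungs, against 7858 and 7624 in the wild type. Of 12 tested genes 1 was called, beside 2.39% of all genes tested. It was the collagenase gene Mmp8, with 538 and 540 against 168 and 204 (log2 fold change 1.54, limma, adjusted p = 0.018). The part of neutrophils in the Chil3 values was not tested.

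**Figure D3:**
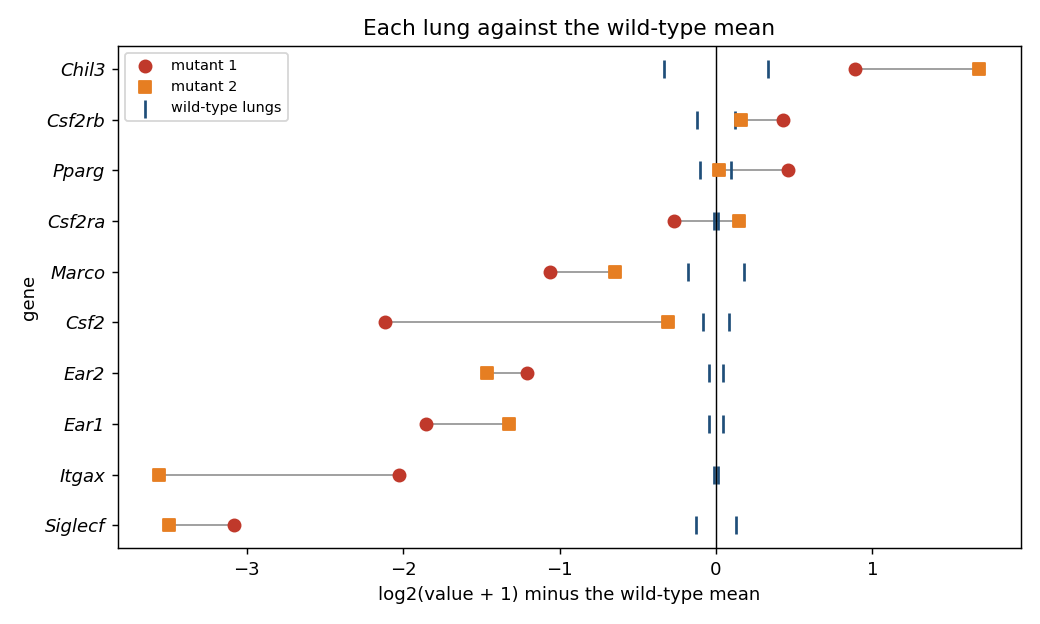
Log2(value + 1) of each lung minus the mean of the wild-type lungs for the 10 genes, ordered by the mean difference, with mutant lung 1 as a circle, mutant lung 2 as a square and the wild-type lungs as ticks. Siglecf is below -3 in both mutant lungs, Csf2 and Itgax differ by 1.81 and 1.54 between the mutant lungs, and Chil3 is the highest.

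The mutant lungs did not share 1 order among these genes. Mutant lung 1 had the lower Csf2 (-2.11 against -0.31 on the log2 scale relative to the wild-type mean), Ear1 and Marco, and mutant lung 2 the lower Itgax (-3.56 against -2.03) and Ear2. Siglecf differed by 0.41 between them, but this sets 3 or 4 reads against 2 reads and cannot show how alike the lungs were.

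Other genes of the alveolar macrophage were mixed. Of 25 genes, 24 were tested, 1 was called lower, 1 higher and 22 neither, beside 0.917% lower and 1.47% higher of all genes tested. The median was -0.27 against -0.02 over all genes tested. Both mutant lungs lay below both wild-type lungs for 10 and above them for 4, beside 26.9% and 25.7% of all genes tested. Olr1, a receptor for oxidized lipoprotein, had 50 and 46 normalized counts against 150 and 140 and fell (log2 fold change -1.57, limma, adjusted p = 0.029). Fabp4, a lipid carrier found in capillary endothelium too, rose from 373 and 358 to 905 and 1610 (1.72, adjusted p = 0.0393). Slc39a2, a zinc transporter gene, had 9 and 25 against 96 and 56 (-2.21, adjusted p = 0.103), Il1rn, the interleukin 1 receptor antagonist gene, had 94 and 74 against 175 and 168 (-1.03, adjusted p = 0.0763), and the droplet gene Cidec had 8 and 11 against 23 and 21. The mannose receptor gene Mrc1 had 913 and 817 against 1177 and 1000, and the GM-CSF-dependent cholesterol exporter gene Abcg1 had 465 and 331 against 411 and 450. In the other direction, the keratin gene Krt19 had 3533 and 3795 against 3000 and 2892, Plet1 had 372 and 509 against 328 and 304, and Kcnip4 had 50 and 63 against 37 and 41, none of them called. Apart from Olr1 and Fabp4, the genes of this list were picked for naming after their values were seen.

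Among signals that guide macrophage maturation, 2 of 15 tested genes fell, beside 0.917% of all genes tested, and none rose. At an unadjusted p under 0.05, 1 was higher and 4 lower, and the median was -0.53. Itgb6 encodes the beta chain of the epithelial integrin that activates TGF-beta, and it fell from 936 and 763 normalized counts to 337 and 237 (log2 fold change -1.58, standard error 0.22, limma, adjusted p = 0.0299). Csf1, the gene of the macrophage growth factor M-CSF, fell from 532 and 460 to 242 and 258 (-0.98, limma, adjusted p = 0.044). Csf1 was not called without the mean-variance trend (limma, adjusted p = 0.0964) or when low genes were kept (0.24). With 1 lung left out its log2 fold change lay between -1.087 and -0.878. Il33, whose product acts on innate lymphoid cells, had 362 and 1050 against 1389 and 853, and the groups overlapped. Il33 was named after its values were seen.

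General macrophage, monocyte and leukocyte genes were measured as well. Of 24 tested macrophage and monocyte genes 1 fell, Ms4a7, from 141 and 149 normalized counts to 37 and 53 (log2 fold change -1.69, limma, adjusted p = 0.036). None rose, where 3 were higher and 8 lower at an unadjusted p under 0.05, and the median was -0.35. The share called lower over all genes tested was 0.917%. Cx3cr1, the fractalkine receptor gene of monocytes and resident macrophages, had 109 and 16 against 424 and 421 (-3.29, standard error 0.80, adjusted p = 0.103), and Cd68 had 139 and 176 against 292 and 260 (-0.81, adjusted p = 0.105). The complement gene C1qa had 318 in each mutant lung against 471 and 393. Above the wild type in both mutant lungs, and not called, were Mertk, a receptor for the uptake of dying cells, with 1681 and 1410 against 864 and 886 (0.81, adjusted p = 0.0563), the haemoglobin scavenger receptor gene Cd163 with 132 and 98 against 62 and 52 (0.99), and the monocyte gene Ly6c2 with 1215 and 676 against 548 and 553 (0.72). Apart from Ms4a7, the genes of this list were named after their values were seen. The list's summed normalized counts were 34291 and 33622 in the mutant lungs, against 49231 and 40032. The lysozyme gene Lyz2 was the largest contributor in all 4 lungs, with 16266 and 16108 against 32500 and 23395. Without Lyz2 the sum was not lower in the mutant lungs. Lyve1, with 7410 and 8628 against 6512 and 7117, was above the wild type in both. Which cells gave these values was not tested.

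Of 12 general leukocyte genes, limma called none, with 7 lower and none higher at an unadjusted p under 0.05. Such a p was found for 3703 of all 18436 genes tested, in either direction. The list had a median of -0.49 and summed normalized counts of 7277 and 5445 against 9255 and 9460. Cd52, a surface glycoprotein gene of leukocytes, had 230 and 226 against 424 and 403 (log2 fold change -0.86, adjusted p = 0.0542), and the tetraspanin gene Cd37 had 85 and 89 against 165 and 162 (-0.90, adjusted p = 0.0788). Cd52 was called with libraries scaled to equal totals (limma, adjusted p = 0.0457) and when only genes whose mean reached 50 were tested (0.0475). It was not called with quantile normalization (limma, adjusted p = 0.0611) or a block for replicate number (0.0585). Nor was it called without the mean-variance trend (0.102) or when low genes were kept (0.222). The part of leukocyte numbers in the members' values was not tested.

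The other cells that carry these markers were looked at too. Of 11 eosinophil genes, 6 did not reach 10 normalized counts in any lung, and the granule protein genes Epx and Prg2 were at 0 to 3 in every lung. The list summed to 222 and 152 in the mutant lungs, against 367 and 309, mostly from Ear10, and of 3 tested genes limma called none (1 lower at an unadjusted p under 0.05), Ltc4s being at 16 and 16 against 17 and 14. Of 10 tested dendritic cell genes limma called none (2 lower and none higher at an unadjusted p under 0.05). The antigen presentation gene H2-Ab1 had 62 and 36 against 127 and 115 (log2 fold change -1.34, adjusted p = 0.0968) and its regulator Ciita 10 and 7 against 16 and 32, while the dendritic cell genes Xcr1, Siglech and Cd209a were at 6 or below in every lung. Cd74, the invariant chain gene, had 343 and 68 against 415 and 402, and H2-Eb1 had 70 and 22 against 98 and 88, in both cases lowest in mutant lung 2. The groups overlapped for Clec9a (801 and 369 against 644 and 575), Zbtb46 (581 and 513 against 555 and 616), Batf3, Itgae and Clec10a. Both mutant lungs lay below both wild-type lungs for 5 of the 10 tested genes, beside 26.9% of all genes tested. Apart from H2-Ab1 and Ciita, the dendritic cell genes were named after their values were seen. The list median was -0.58, and -1.14 in mutant lung 2 alone. The list summed to 5442 and 4209 against 5575 and 5461, of which Cst3, a gene of many cell types, made up 3511 and 3141 against 3649 and 3554.

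Lymphoid, fat and other tissue genes gave few calls. Of 7 tested T, NK and innate lymphoid cell genes 1 rose, beside 1.47% of all genes tested. It was the perforin gene Prf1, which rose from 10 and 8 normalized counts to 46 and 123 (log2 fold change 2.94, limma, adjusted p = 0.048). The NK cell receptor gene Ncr1 stood at 0 and 0 against 4 and 5, and the list summed to 1335 and 2950 against 1043 and 978. Most of that sum came from Rora (1083 and 2054 against 729 and 754) and, in mutant lung 2, Areg (70 and 685 against 109 and 72), both of which other lung cells express, while the granzyme gene Gzma had 47 and 29 against 72 and 52 and Gata3 16 and 8 against 34 and 21. Prf1 was not called with a pseudocount of 5 (limma, adjusted p = 0.0535) or with equal library totals (0.0528). Nor was it called without the mean-variance trend (0.0914) or when low genes were kept (0.24). Of the adipocyte genes only Plin4 was tested, with 48 and 96 against 25 and 28 (adjusted p = 0.146). Lung genes as a list had a median of -0.09 with none of 16 called by limma (2 lower at an unadjusted p under 0.05), Lamp3 and Ager being lowest in p (adjusted p = 0.11 and 0.147). Of 9 tested genes of tissues that dissection can carry along 1 was called, the atrial myosin gene Myl7, which fell from 1333 and 1288 to 394 and 460 (log2 fold change -1.62, limma, adjusted p = 0.0109). The median of that list was -0.70. The muscle genes Ckm (-1.18, limma, adjusted p = 0.0665), Myh6 (-0.95, adjusted p = 0.0782), Actc1 (-0.72) and Tnnt2 (-0.70) also had both mutant lungs below both wild-type lungs without being called. In the other direction, Alb had 51 and 26 against 16 and 11 (1.39, limma, adjusted p = 0.17), above the wild type in both mutant lungs. The groups overlapped for the muscle gene Acta1 (71 and 35 against 44 and 41), Rag1 and Tg. Which tissue gave these values was not tested. Of all genes tested, 2.39% were called in either direction, 26.9% had both mutant lungs below and 25.7% had both above.

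**Figure D4:**
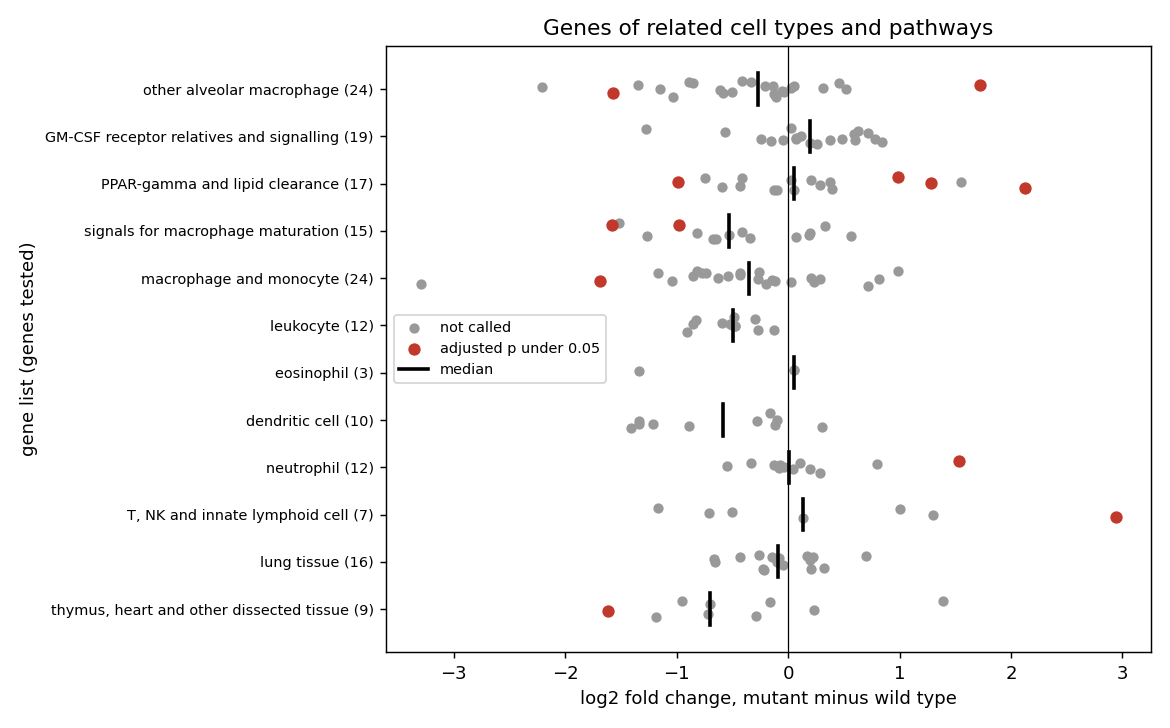
Log2 fold change (mutant minus wild type) of each tested gene in 12 lists, 1 point per gene with a random vertical offset, red where limma's adjusted p was under 0.05, and black bars for list medians. The adipocyte list, with 1 tested gene, is left out. The leukocyte genes lie between -0.90 and -0.12, and the lowest macrophage gene is Cx3cr1 at -3.29.

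In all, 12 of the 169 tested genes of these lists were called, against 2.39% of all genes tested. The lists were chosen with earlier results of these data known. The number called depended on which lungs were kept, both for these lists and for all genes tested.

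The genes whose values over the 4 lungs were most like those of Siglecf, by Euclidean distance of log2(value + 1) from each gene's own mean among 14702 other protein-coding genes, were Shisa2 (58 and 47 normalized counts in the mutant, 627 and 649 in the wild type), Lrrc15 (4 and 4 against 51 and 59), Slc27a6 (351 and 172 against 2983 and 2697), Gm11541 (3 and 2 against 29 and 18) and Phex (149 and 147 against 1063 and 828). Itgax came at place 12. For Itgax they were Rspo2 (31 and 11 against 135 and 138), Adra1b (44 and 13 against 183 and 202), Meox2 (545 and 218 against 2013 and 1833), Xpnpep2 (5 and 2 against 28 and 24) and Cass4 (106 and 41 against 374 and 320), and Siglecf came at place 29.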

How the data were processed

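Per the labels' protocols, stranded mRNA libraries were made from total RNA of 4 lungs. The authors deposited whole-number normalized counts for each gene, handled here as a score; their scaling, the strand setting and the treatment of multi-mapping reads were not given in the sources used here. Per the submitters' processing notes, tools were FastQC, STAR 2.4.0a, featureCounts 1.5.1 (Subread), and DESeq2 1.14.1, and builds were mm10 and GRCm38. Reads per library were estimated from the rounding of low values, and no count model was run.

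Groups follow the sample titles. The comparison used limma 3.58.1 in R 4.3.3 with a trended prior, two-sided, on log2(value + 1), for 18436 genes whose mean reached 10, and called a gene when its Benjamini-Hochberg adjusted p was under 0.05. The steps were tested on simulated data. Alternatives were a pseudocount of 5, other filters and scalings, no trend, a replicate block and each lung left out. The members and lists were chosen with earlier results of these data known. The rule named the members, Ryk, the ligands and chains that share the beta chain, up to 6 called genes per list (2 with the smallest p where none was called) and the 5 genes most like Siglecf and Itgax. Near copies and the markers given as checks of cell types were named after their values were seen. Identity between copies is that of GENCODE M21 transcripts, and promoters are from RefSeq.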

Additional observations from a re-analysis of the deposited data

How the results depend on the processing

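Over all genes limma called 440; the number was 766 with a replicate block, 72 without the mean-variance trend, 0 when low genes were kept (4876 had an unadjusted p under 0.05), and between 0 and 2385 with 1 lung left out. Of the 8 tested members 2 were called, and 0 without the trend, with no filter, and in the lowest of the fits with 1 lung left out (highest 2). Of the genes in the fixed lists 12 were called, 19 with the replicate block, 0 without the trend and with no filter, and between 0 and 48 with 1 lung left out. The labels number the lungs 1 and 2 in both genotypes without saying that a number marks a shared litter or day, and same-numbered lungs did not deviate together (correlation -0.058 across genes), so the block pairs lungs by number only. With it Chil3 (adjusted p = 0.00893), Ear10 (0.0161) and H2-Ab1 (0.0415) were called as well. Without mutant lung 1 the log2 fold change was 0.79 for Stat3, -0.87 for Cd52, -0.87 for Cd37 and -1.60 for Ear10. In the same fit it was -1.72 for H2-Ab1, 1.82 for Plin4 and -0.53 for Ager. Csf2ra changed sign without mutant lung 1 (0.147; with 1 lung left out it ranged from -0.271), and Ltc4s with equal library totals (-0.025) and without wild-type lung 2 (-0.082; otherwise up to 0.181), none of them called. Where 1 lung is left out, the lone lung of its group is assumed to vary like the other group. Only the fit without mutant lung 1 holds lungs that are alike in the sex-linked genes. Siglecf moved to -2.34 with a pseudocount of 5, which shrinks differences of low values. The other causes were not tested. With quantile normalization Lpl lost its call (adjusted p = 0.0653). Values under about 10, as for Siglecf in both mutant lungs and Itgax in mutant lung 2, rest on a few reads, and counting error limits how precisely their ratio is known.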
